A study of Mus musculus with 23 samples.

Results

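Interneuron subtype markers are genes used to recognise the classes of GABA-releasing neurons in the hippocampus. The 10 genes described here were chosen by name: Gad1, Gad2, Sst, Pvalb, Vip, Npy, Cck, Calb2, Reln and Lhx6. They are 10 of the 45706 gene identifiers in the table, and each matched 1 mouse Ensembl identifier. The 23 libraries hold hippocampal RNA of female mice, 12 of them Ins2+/+ (WT) and 11 Ins2-/- (KO). Ins2 encodes an insulin, and the series asks what its loss from the brain does. The labels give no age, strain, treatment or batch, and name no promoter or Cre that would limit the knockout to a cell type.

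Most hippocampal neurons are excitatory pyramidal or granule cells, and inhibitory interneurons are a minority that make GABA with the enzymes encoded by Gad1 and Gad2. Interneurons born in the medial ganglionic eminence depend on the transcription factor Lhx6 and mature into cells with parvalbumin (Pvalb) or somatostatin (Sst). Those born in the caudal ganglionic eminence include cells with vasoactive intestinal peptide (Vip), and cells with cholecystokinin (Cck). Neuropeptide Y (Npy) and reelin (Reln) mark further classes, and calretinin (Calb2) marks interneurons that contact other interneurons. Several of these genes are not private to interneurons: pyramidal cells also express Cck, mossy cells of the dentate hilus Calb2, and Cajal-Retzius cells Reln and Calb2.

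Vip, Sst, Pvalb and Npy correlated with each other across libraries in all 6 of their pairs, so the DNA just before their start sites is shown. The stretches are from RefSeq promoter windows on GRCm38.p6, read 5′ to 3′ on the gene's strand. Capitals mark the cAMP response element TGACGTCA or its 5-base core TGACG, searched on both strands, where the core lies within the full element. Vip is at chr10:5639098-5639217 (plus strand), Pvalb at chr15:78206401-78206520 (minus strand) and Npy at chr6:49822590-49822709 (plus strand), each being the 120 bases before the start. For Sst, 30 bases around the element are given (chr16:23890874-23890903, minus strand), because GENCODE M21 starts its transcript 114 bases further upstream.
Vip: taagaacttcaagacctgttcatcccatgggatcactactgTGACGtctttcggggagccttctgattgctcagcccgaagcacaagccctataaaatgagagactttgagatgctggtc
Sst: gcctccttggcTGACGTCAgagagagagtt
Pvalb: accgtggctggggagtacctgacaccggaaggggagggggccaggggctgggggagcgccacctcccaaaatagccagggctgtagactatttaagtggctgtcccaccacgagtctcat
Npy: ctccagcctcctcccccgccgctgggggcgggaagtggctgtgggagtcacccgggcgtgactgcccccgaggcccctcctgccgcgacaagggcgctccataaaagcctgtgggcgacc
The full element was found before the start of Sst alone among the 9 members with a window, and in 1.55% of all 32851 windows over the 250 bases before the start. The core TGACG was found in Gad2, Sst, Vip and Cck, and in 17.8% of all windows. The letters TATAAA, on either strand, were found in Vip and Gad1 (in Gad1 on the opposite strand), and in 12.4% of all windows. None of the 3 motifs was found in all of Vip, Sst, Pvalb and Npy. Matches are descriptions of letters in these windows.

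Before the members were compared, the libraries were checked. Library totals ran from 13792274 to 22953261 counts. Ins2 had 0 counts in the 11 KO libraries together, which allows up to 0.0156 CPM (counts scaled to a common library size), and 26 counts in WT, found in 7 of 12 libraries. Of these 26 counts, 18 were in WT library 17, and the other WT libraries held at most 2 each. KO library 8 stood apart: a list of 12 hypothalamic genes summed to 1586 CPM there and to 3.75 to 15.8 CPM in the other 22 libraries. Granule cell genes of the dentate gyrus summed to 93.3 CPM in KO library 8 and to 335 to 707 CPM in the others. Another 5 libraries (WT 14 and 17, KO 2, 6 and 12) held high levels of choroid plexus genes. Genotype comparisons are therefore given with and without KO library 8. Levels between genes and co-variation are given over the other 22 libraries, with the main co-variation values also without the 5 choroid plexus libraries.

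The question of the genotype comparison is whether the interneuron markers differ between KO and WT hippocampus. No member was called: 0 of 10 had an edgeR adjusted p below 0.05, in all libraries or without KO library 8, where 2 genes (0.0126% of all genes tested) were called in each comparison. At an unadjusted p below 0.05 there was 1 member in all libraries, Vip, against 5.74% of all genes. Without KO library 8 there were 2, Vip and Pvalb, against 4.11% of all genes. In 7 of 10 members the fold change was above 0 in all libraries, where 51% of all genes were, and in 6 of 10 without KO library 8 (51.6% of all genes). The median log2 fold change of the members was 0.087, and 0.041 without KO library 8, beside 0.00309 and 0.00321 for all genes. For 0 of 10 members did the groups separate without overlap, against 0.0126% of all genes. In bulk tissue, fewer cells of a type and less RNA per cell cannot be told apart.

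**Figure D1:**
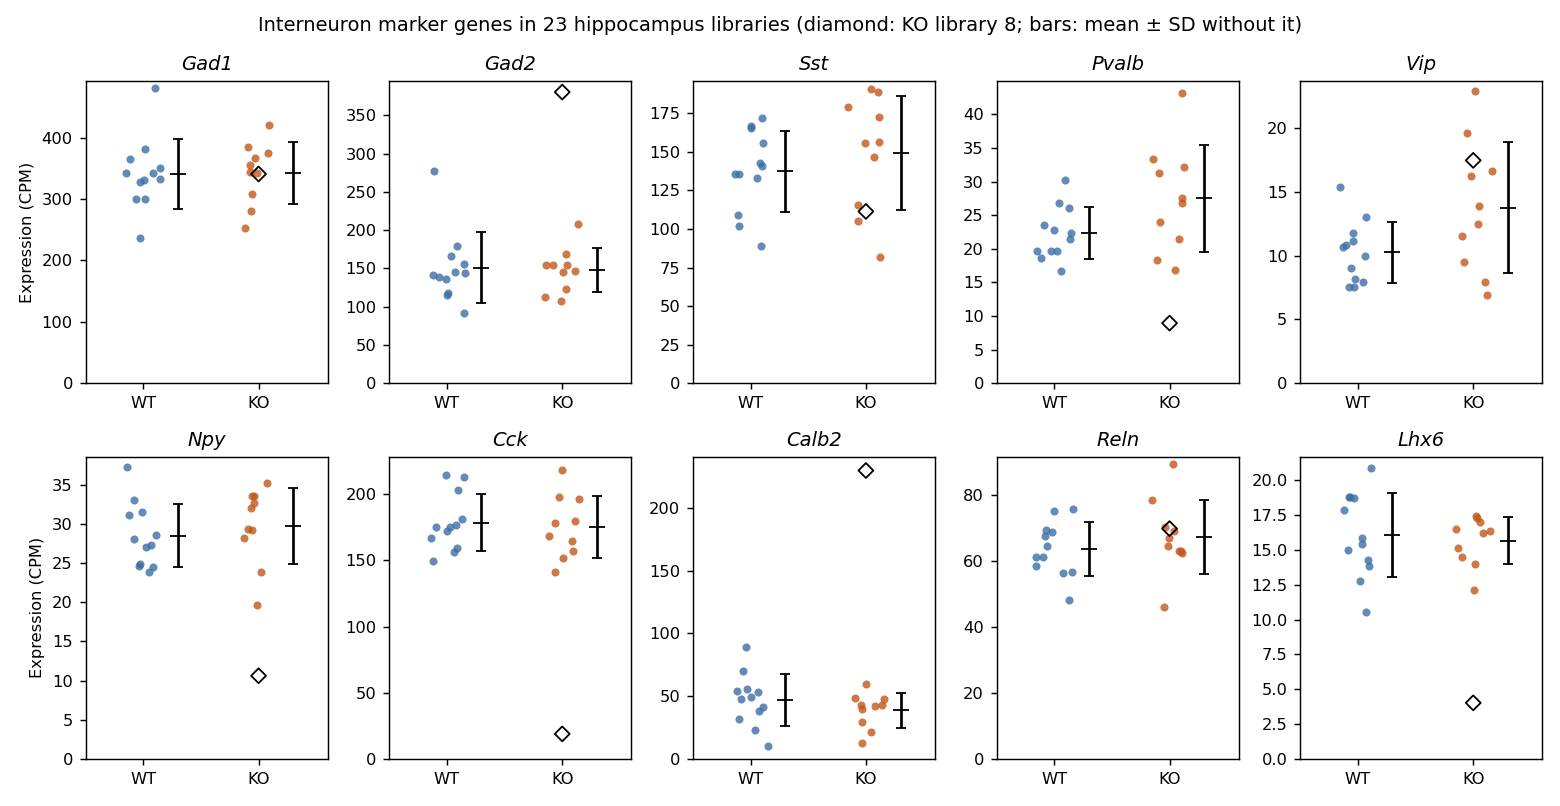
Expression (CPM, linear axis from 0) of the 10 markers in each library, WT in blue and KO in orange, with the mean and SD of each genotype without KO library 8 as black bars and KO library 8 as a diamond. WT and KO points overlap in every panel, and the diamond lies outside all other libraries for Gad2 and Calb2 (above) and for Pvalb, Npy, Cck and Lhx6 (below).

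Vip (ENSMUSG00000019772, chr10:5639218-5647617, plus strand), a peptide of interneurons that mainly inhibit other interneurons, had the largest fold change of the members. WT libraries held 7.51 to 15.4 CPM (median 10.3) and KO libraries 6.88 to 22.9 CPM (median 13.9). The highest 5 values were all KO (libraries 16, 13, 8, 21 and 4, at 22.9, 19.6, 17.5, 16.6 and 16.2 CPM), but the lowest of all was KO library 6, so the groups overlapped. WT averaged 10.3 ± 2.41 CPM (SD, n = 12), and KO averaged 14.1 ± 5.01 CPM (SD, n = 11). The log2 fold change was 0.46 (SE 0.175, edgeR p = 0.0142, adjusted p = 0.781). Without KO library 8, the KO mean was 13.8 ± 5.15 CPM (SD, n = 10) and the log2 fold change 0.43 (SE 0.179, edgeR p = 0.0236, adjusted p = 0.967). Without KO library 16, the highest, it was 0.37 in the remaining libraries (edgeR p = 0.038) and 0.32 with KO library 8 also left out (edgeR p = 0.0698).

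Over the 22 libraries without KO library 8, Vip correlated with the mean log2 CPM of a list of 10 neocortical genes (r = 0.75, Spearman's rho 0.49). Permutation p was 5e-05 and 0.0228, with an adjusted p for r of 0.00433 over the 100 relations of members and lists. In WT alone r was 0.38, and in KO without library 8 it was 0.83. The relation was not particular to Vip. Pvalb correlated with this list at r = 0.56 (rho 0.29, permutation p = 0.00704 and 0.194, adjusted p for r 0.0469). For Pvalb, r was -0.14 in WT and 0.71 in KO without library 8. How much of the Vip values came from neocortical tissue was not tested. The 10 genes, all of them with counts, summed to 319 to 402 CPM in WT and to 317 to 415 CPM in KO without library 8. Without KO library 8, the fold change was above 0 for 8 of these 10 genes (51.6% of all genes) and below 0 for Scnn1a and Rasgrf2. Of the 10, 4 were then higher in KO at an unadjusted edgeR p below 0.05 (Rorb, Cplx3, Ccn2 and Fezf2), against 2.18% of all genes. In all libraries, 7 had a fold change above 0 (51% of all genes). There, 3 were higher at that threshold (Rorb, Cux2 and Ccn2), against 3.41%. After adjustment 0 were called in either. On the mean log2 CPM of this list, 7 of 22 libraries lay at 4.40 to 4.86, 5 of them KO, and the other 15 at 3.98 to 4.26. Every KO library but 8 with Vip above the WT maximum was among those 7, as was the WT library with the most Vip (library 14). Within the 7, Vip and the list correlated at r = 0.82 (Spearman's rho 0.54, permutation p = 0.0314 and 0.236). Within the 15, r was -0.39 (rho -0.37, permutation p = 0.146 and 0.174). The division was placed at the widest inner gap of the list's mean in these same libraries. Values within its parts therefore describe them and do not test the relation. Using lists as covariates was decided after the data were seen, and the neocortex list holds Fezf2, one of the 5 genes most like Vip. When the list's mean was added to the fit, the log2 fold change of Vip without KO library 8 was 0.04 (SE 0.154, edgeR p = 0.803). With KO library 8 it was 0.41 (SE 0.172, edgeR p = 0.0276). KO library 8 had the lowest neocortical mean, 3.36, and a Vip level of 17.5 CPM. Granule cell genes of the dentate gyrus had lower values in KO for 7 of 7 genes, with a median log2 fold change of -0.32, and of -0.22 without KO library 8. At an unadjusted edgeR p below 0.05, 1 of the 7 was lower in all libraries (2.34% of all genes) and 3 without KO library 8 (1.93%). None was called after adjustment. Adding the dentate gyrus list to the fit in place of the neocortex list gave 0.18 without KO library 8 (SE 0.16, edgeR p = 0.269) and 0.33 with it. Leaving out the 5 choroid plexus libraries raised the fold change of Vip to 0.66 (SE 0.153, edgeR p = 0.000343, adjusted p = 0.336), and to 0.65 without KO library 8 (SE 0.158, edgeR p = 0.000597, adjusted p = 0.397). At that unadjusted threshold of 0.05, 9.14% and 8.05% of all genes passed in these subsets.

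**Figure D2:**
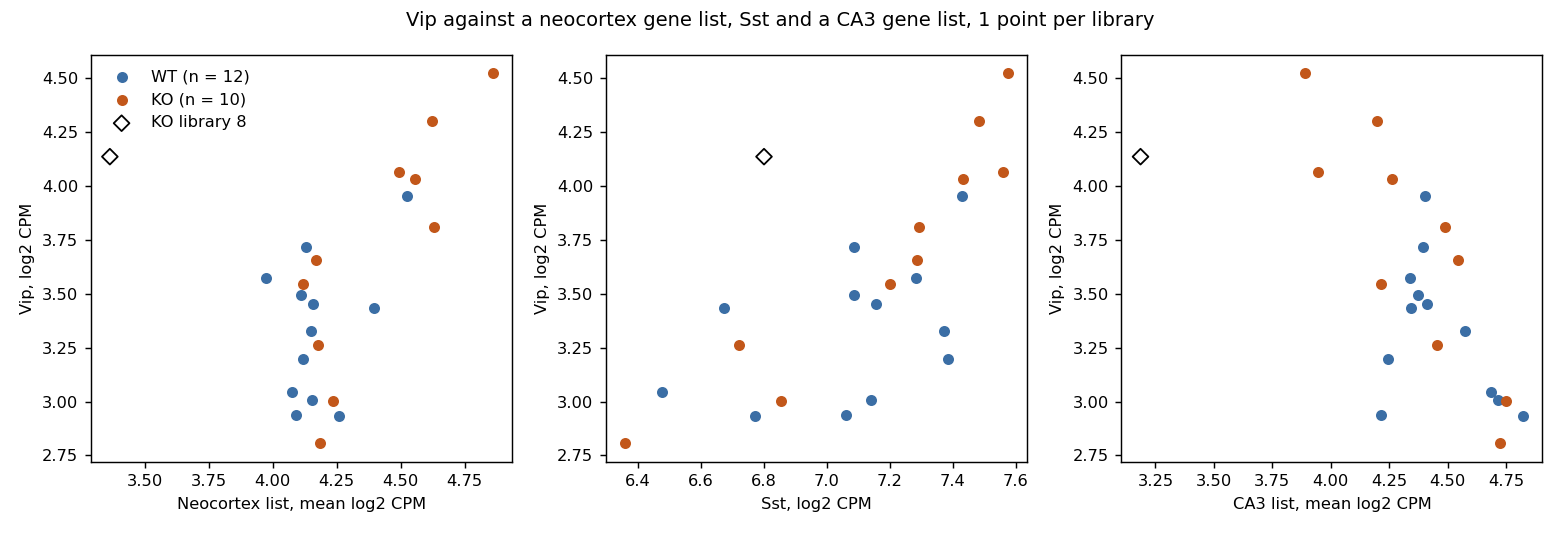
Vip (log2 CPM) in each library against the mean log2 CPM of the neocortex list (left), against Sst (middle) and against the mean log2 CPM of the CA3 list (right), WT in blue, KO in orange and KO library 8 as a diamond. Leaving aside KO library 8, the 4 highest Vip levels are in KO libraries with neocortex means of 4.49 or more and high Sst. KO library 8 has the third highest Vip with the lowest neocortex mean (3.36).

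The genes most like Vip across the 22 libraries were found by Pearson's r over all tested genes with a mean of at least 1 CPM, members left out. They were Mpped1 (r = 0.93), Vxn (0.91), Ccn3 (0.90), Nxph3 (0.88) and Fezf2 (0.88). Mpped1 stands on the CA1 list used here and Fezf2, a transcription factor of deep cortical layers, on the neocortex list. Of these 5, Nxph3 had an unadjusted edgeR p below 0.05 in both comparisons, with a log2 fold change of 1.15 (edgeR p = 0.0043), and 1.20 without KO library 8 (edgeR p = 0.0049). None of the 5 is on the interneuron lists used here. Over the 22 libraries Vip correlated with the CA1 list (r = 0.74, rho 0.71), and inversely with the CA3 list (r = -0.73, rho -0.65) and the dentate gyrus list (r = -0.63, rho -0.60). Their permutation p-values for r were 0.0001, 0.00013 and 0.00155, and for rho 0.00027, 0.00128 and 0.00359, with adjusted p for r of 0.00433, 0.00433 and 0.0155 over the 100 relations of members and lists. Without the 2 libraries farthest from the median of the list, r was 0.70, -0.60 and -0.50. In WT alone r was 0.70, -0.42 and -0.39, and in KO without library 8 it was 0.75, -0.86 and -0.75. Without the choroid plexus libraries it was 0.86, -0.71 and -0.69. The relation with the dentate gyrus list was not particular to Vip. Pvalb had it at r = -0.60 (rho -0.54, permutation p = 0.00317 and 0.0093, adjusted p for r 0.027).

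Pvalb (ENSMUSG00000005716, chr15:78191114-78206400, minus strand) encodes the calcium-binding protein of fast-spiking basket cells. WT libraries held 16.7 to 30.2 CPM (median 21.9) and KO libraries 8.94 to 43.2 CPM (median 26.8). KO library 8 was the lowest of all and KO library 16 the highest, and 4 KO libraries lay above every WT library. The log2 fold change was 0.21 (SE 0.172, edgeR p = 0.226), and 0.31 without KO library 8 (SE 0.135, edgeR p = 0.0304, adjusted p = 0.967). Without KO library 16 as well, it was 0.22 (edgeR p = 0.0908). With the neocortex list in the fit, the value without KO library 8 was 0.12 (SE 0.146, edgeR p = 0.402), and over all libraries it was -0.02 (SE 0.134).

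Sst (ENSMUSG00000004366, chr16:23889573-23890958, minus strand) and Npy (ENSMUSG00000029819, chr6:49822710-49829507, plus strand) encode peptides of dendrite-targeting interneurons, and many hilar cells make both. Sst ranged from 88.9 to 172 CPM in WT (median 138) and from 82.1 to 191 CPM in KO (median 156), with 4 KO libraries above and 1 below the WT range. Its log2 fold change was 0.09 (SE 0.135, edgeR p = 0.526), and 0.13 without KO library 8 (SE 0.136, edgeR p = 0.364). Npy ranged from 23.9 to 37.3 CPM in WT (median 27.7) and from 10.6 to 35.3 CPM in KO (median 29.4). Its lowest value was that of KO library 8, and its fold change turned from -0.02 (SE 0.137) to 0.07 (SE 0.091) without that library. For both genes the genotypes overlapped and the difference was within the spread of the libraries.

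The enzymes of Gad1 (ENSMUSG00000070880, chr2:70553072-70602014, plus strand) and Gad2 (ENSMUSG00000026787, chr2:22622205-22693874, plus strand) stand for the GABA-making population as a whole. Gad1 held 237 to 480 CPM in WT (median 338) and 252 to 420 CPM in KO (median 344), so the KO range lay inside the WT range. Its log2 fold change was 0.01 (SE 0.0905, edgeR p = 0.929), and 0.01 without KO library 8 (SE 0.0913). Gad2 held 92.0 to 278 CPM in WT (median 143) and 108 to 380 CPM in KO (median 154). Its highest values were KO library 8 (380 CPM) and WT library 15 (278 CPM), and the next highest was 208 CPM. The fold change of Gad2 was 0.16 (SE 0.187, edgeR p = 0.401), and -0.03 without KO library 8 (SE 0.142). With the mean of Gad1 and Gad2 as a covariate, the log2 fold change of Vip was 0.39 (SE 0.167, edgeR p = 0.0285, 5.15% of all genes below 0.05). It was 0.40 without KO library 8 (SE 0.172, edgeR p = 0.0289, 5.07% of all genes).

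Lhx6 (ENSMUSG00000026890, chr2:36081953-36105408, minus strand) encodes the transcription factor named above. It ranged from 10.6 to 20.8 CPM in WT (median 15.6) and from 4.02 to 17.4 CPM in KO (median 16.2). Only KO library 8 lay below the WT range, with 67 counts, the fewest of any member in any library. The log2 fold change was -0.14 (SE 0.16, edgeR p = 0.398), and -0.03 without that library (SE 0.0931). Lhx6 shares 104 exonic bases with Gm27953 on the same strand, so its counts are uncertain to that extent.

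Cck (ENSMUSG00000032532, chr9:121489824-121495694, minus strand), Calb2 (ENSMUSG00000003657, chr8:110137502-110168210, minus strand) and Reln (ENSMUSG00000042453, chr5:21884454-22344702, minus strand) are the members named above as also expressed outside interneurons. Cck held 149 to 215 CPM in WT (median 175) and 18.9 to 218 CPM in KO (median 169). KO library 8, at 18.9 CPM, was far below the next lowest library, at 141 CPM. The fold change of Cck was -0.15 (SE 0.21), and -0.02 without KO library 8 (SE 0.0735). Calb2 was the most variable member, at 10.2 to 89.3 CPM in WT (median 48.3) and 12.4 to 230 CPM in KO (median 42.8). Its direction rested on KO library 8: the fold change was 0.25 with it (SE 0.375) and -0.28 without it (SE 0.28, edgeR p = 0.326). Calb2 moved with the mossy cell list, Calb2 itself left out (r = 0.64, rho 0.67, permutation p = 0.00098 and 0.00079, adjusted p for r 0.0146 over the 100 relations). That r was 0.51 without the 2 libraries farthest from the list's median, 0.90 in WT and 0.19 in KO without library 8, and 0.57 without the choroid plexus libraries. The relation was not particular to Calb2. Lhx6 correlated with the mossy cell list at r = 0.64 (rho 0.54, permutation p = 0.00131 and 0.0101, adjusted p for r 0.0146). For Lhx6, r was 0.87 in WT and 0.40 without the choroid plexus libraries. The mossy cell list holds Drd2, which is also on a list of striatal genes used below. Leaving aside KO library 8, the mean log2 CPM of the mossy cell list, Calb2 included, was highest in WT library 15 (4.45). That library also had the most Calb2 and Lhx6 of these libraries. How much of either relation rested on it was not tested. Reln, an extracellular protein that guides cortical layering, held 48.1 to 75.8 CPM in WT (median 63.0) and 45.9 to 89.5 CPM in KO (median 67.0). Its fold change was 0.09 (SE 0.0845, edgeR p = 0.315), and 0.09 without KO library 8 (SE 0.0861). With a list of Cajal-Retzius cell genes its r was 0.18 (rho 0.14, permutation p = 0.42 and 0.54, adjusted p for r 0.598). Reln shares 246 exonic bases with the antisense gene Gm10475, and the use of strand in counting is not stated.

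**Figure D3:**
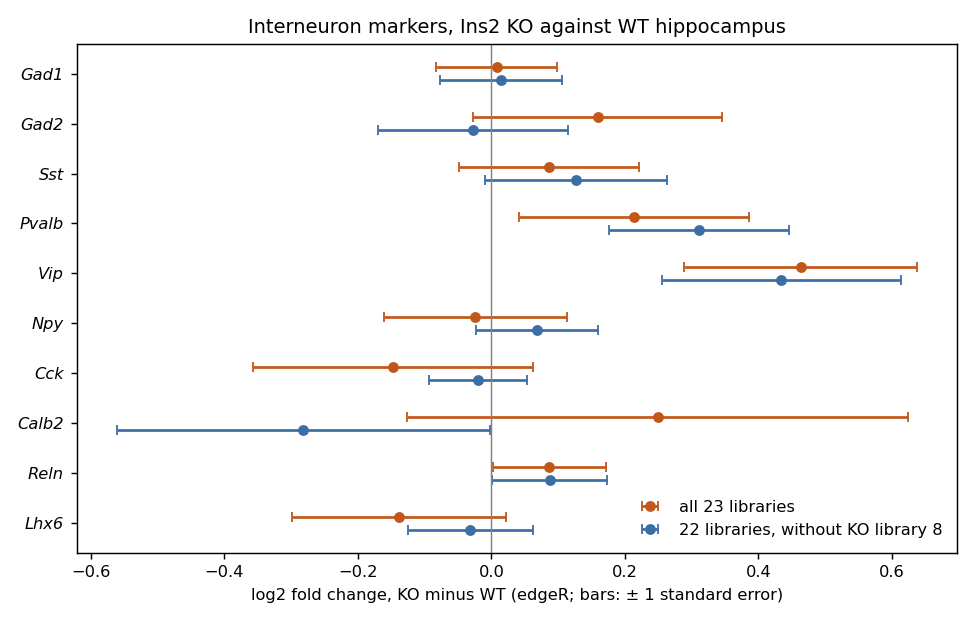
Log2 fold change of each marker, KO minus WT, from edgeR, with bars of 1 standard error, over all 23 libraries (orange) and over 22 libraries without KO library 8 (blue). Vip lies farthest from 0 in both (0.46 and 0.43), Calb2, Gad2 and Npy change sign between them, and no marker reached an adjusted p below 0.05.

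KO library 8 had its own pattern of markers beside the median of the other 22 libraries. Calb2 was 5.36 times and Gad2 2.61 times that median, both above all others, while Gad1 was 0.994 times it. Vip was 1.59 times and Reln 1.08 times the median, inside the range of the others, as was Sst at 0.769 times. Cck (0.108 times), Lhx6 (0.251 times), Npy (0.368 times) and Pvalb (0.386 times) were below every other library. The peptide genes of the hypothalamic list were led by Pmch at 609 CPM, against at most 0.432 CPM elsewhere. Gad2 exceeded Gad1 in CPM in this library and in 0 of the other 22. How much of each marker's value came from hypothalamic tissue was not tested.

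Levels were compared between members per kilobase of annotated exon (GENCODE M21), over the 22 libraries without KO library 8. Sst was highest, with a median of 201 CPM per kilobase, followed by Cck at 134, Npy at 51.0 and Gad1 at 44.9. Gad2 (24.8), Calb2 (24.6) and Pvalb (22.2) formed a group that the libraries did not order: Gad2 exceeded Calb2 in 11 of 22 libraries and Calb2 exceeded Pvalb in 12 of 22. Lhx6 (3.34), Vip (3.23) and Reln (2.72) were lowest, with Lhx6 above Vip in 11 of 22 libraries and Vip above Reln in 16. The other neighbours kept their order in at least 18 of 22 libraries. The annotated exon length, which for Reln is 23738 bases, need not be the length of the transcripts present. Within a genotype, the SD of log2 CPM over these libraries was largest for Calb2 (0.751, above 95.8% of tested genes) and Vip (0.445, above 86.5%). It was smallest for Cck (0.18, above 49.4%).

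The last question was which markers co-vary. Over the 22 libraries without KO library 8, 19 of 45 member pairs correlated at an adjusted permutation p below 0.05 (Benjamini-Hochberg over the 45 pairs), all with r above 0. The points of these correlations are libraries that share their scaling, their tissue content and, for some, choroid plexus RNA. With the genotype means removed the count was again 19. Over all 23 libraries it was 20, of which 16 had r above 0. It was 4 of 45 without the 5 choroid plexus libraries, 8 without WT library 17 alone, 5 in the 12 WT libraries and 10 in the 10 KO libraries. The mean log2 CPM of the choroid plexus list was 8.78 in WT library 17 and 6.10 to 8.39 in the other 4 of those libraries. WT library 17 had the lowest level of Gad1, Gad2, Calb2 and Lhx6 among the 22. The highest level of each of these 4 genes among the 22 was in WT library 15 (480, 278, 89.3 and 20.8 CPM). The mean log2 CPM of a list of striatal genes was 3.97 in that library and at most 3.03 in the others of the 22.

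The closest pair was Gad1 and Gad2 (r = 0.96, rho 0.96, permutation p = 1e-05 for both, the smallest these resamples can give, adjusted p for r 0.000225). Their r was 0.94 without the 2 libraries farthest from the median, 0.97 in WT, 0.96 in KO and 0.96 without the choroid plexus libraries. Gad2 was the tested gene most correlated with Gad1, and Gad1 ranked 2 for Gad2. Non-members most like Gad1 were Dner (0.95), Zcchc18 (0.94) and Usp29 (0.93). Those most like Gad2 were Usp29 (0.96), the vesicular GABA transporter gene Slc32a1 (0.95) and Tmem130 (0.94).

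All 6 pairs among Sst, Npy, Pvalb and Vip were among the 19, and in WT alone 0 of the 6 passed. Sst and Npy correlated at r = 0.82 (rho 0.81, permutation p = 1e-05 for both), and Sst was the tested gene most correlated with Npy. Sst and Pvalb correlated at r = 0.75 (rho 0.81, permutation p = 3e-05 and 2e-05). Sst and Vip correlated at r = 0.75 (rho 0.79, permutation p = 5e-05 and 3e-05). Their adjusted p-values for r were 0.000225, 0.00045 and 0.00054. Without the 2 libraries farthest from the median of Sst, r was 0.74, 0.73 and 0.71. These 3 pairs and Gad1 with Gad2 were the 4 that passed without the choroid plexus libraries, with r of 0.77, 0.77 and 0.67. In WT alone r was 0.70, 0.60 and 0.45, and in KO without library 8 it was 0.89, 0.86 and 0.94. Pvalb and Vip correlated at r = 0.67 (rho 0.60, permutation p = 0.00055 and 0.00351), with 0.86 in KO and 0.02 in WT, a difference that was not tested. Pvalb and Npy correlated at r = 0.61 (rho 0.72, permutation p = 0.00244 and 0.00034). The r of Vip with Npy was 0.51 (rho 0.53, permutation p = 0.0153 and 0.0121), with 0.11 in WT and 0.34 without the choroid plexus libraries. With KO library 8 included, Pvalb with Vip (0.31) and Vip with Npy (0.07) no longer passed. Non-members most like Sst were Crhbp (0.88), a binding protein for corticotropin-releasing hormone that is also on the wider list, Mgst3 (0.86) and Pitpna (0.85). Mgst3 was also the gene most like Pvalb (0.93), and Nptx2 the one most like Npy (0.81). The CA3 list correlated inversely with Sst (r = -0.66) and Pvalb (r = -0.68), with rho -0.61 for both and permutation p for r of 0.00066 and 0.0005 (adjusted 0.0132 and 0.0125 over the 100 relations). Those for rho were 0.00289 and 0.00283, and without the 2 libraries farthest from the list's median r was -0.57 and -0.58. Without the choroid plexus libraries it was -0.58 and -0.65. The inverse relation was not particular to these genes and Vip. Gad1 (r = -0.64), Gad2 (-0.57) and Reln (-0.60) also had it, with adjusted permutation p for r of 0.015, 0.041 and 0.027. Without the choroid plexus libraries their r was -0.46, -0.37 and -0.47.

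**Figure D4:**
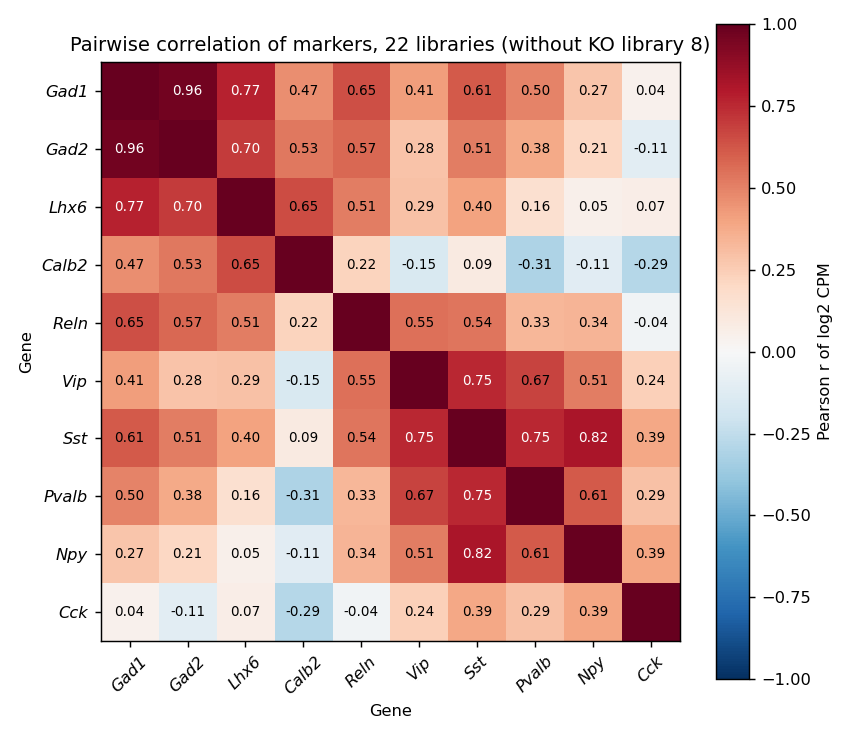
Pearson's r of log2 CPM for each pair of the 10 markers over the 22 libraries without KO library 8, with red for positive and blue for negative values. Gad1 and Gad2 (0.96) form the closest pair, Sst, Npy, Pvalb and Vip form a block of 0.51 to 0.82, and Cck has no value that passed the threshold.

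Lhx6 correlated with Gad1 (r = 0.77, rho 0.63, permutation p = 6e-05 and 0.00207), Gad2 (r = 0.70, rho 0.52, permutation p = 0.00042 and 0.0142) and Calb2 (r = 0.65, rho 0.63, permutation p = 0.00128 and 0.00231). Without the 2 libraries farthest from the median of Lhx6 these were 0.58, 0.54 and 0.55, and without the choroid plexus libraries 0.52, 0.48 and 0.59, not called. Lhx6 did not correlate beyond the threshold with Sst (r = 0.40) or Pvalb (r = 0.16), the markers of the lineage it specifies. The other 9 pairs joined these groups to each other and to Reln, whose partners were Gad1 (r = 0.65), Gad2 (0.57), Vip (0.55), Sst (0.54) and Lhx6 (0.51). Sst also correlated with Gad1 (0.61) and Gad2 (0.51), Pvalb with Gad1 (0.50), and Calb2 with Gad2 (0.53). Over these 9 pairs permutation p for r ran from 0.00154 to 0.0192 (adjusted 0.0077 to 0.0455), and rho from 0.32 to 0.57 (permutation p = 0.0064 to 0.141). Their r was 0.12 to 0.51 without the 2 libraries farthest from the median of whichever gene comes later in the opening list, and 0.08 to 0.50 without the choroid plexus libraries, none passing. It was 0.43 to 0.80 in WT and -0.01 to 0.88 in KO. Cck took part in 0 of the 19 pairs, and its nearest genes were Nrgn (0.85), which encodes the pyramidal cell protein neurogranin, Cdk5r2 (0.84) and Ube2ql1 (0.82). Calb2 was most like Scn9a (0.90), Hap1 (0.87) and Esyt3 (0.85), and Reln most like Apba1 (0.82), Ptprt (0.81) and Rian (0.80). Lhx6 was most like Tchh (0.85), Gprasp2 (0.84) and Zcchc18 (0.83). These likenesses are descriptions over 22 libraries, chosen as the highest of many genes.

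A wider list of 47 interneuron genes was examined by class, of which 43 were tested and 0 called in either comparison. The median log2 fold change was 0.008, with 24 genes higher and 19 lower in KO, and 0.023 without KO library 8 (26 higher, 17 lower). At an unadjusted edgeR p below 0.05, 6 were higher and 0 lower in KO, where 3.41% and 2.34% of all genes were. Without KO library 8 there were 1 higher and 1 lower, against 2.18% and 1.93%. Among GABA-handling genes, Slc32a1 differed by 0.13 (edgeR p = 0.491). Of the medial lineage, Erbb4, a neuregulin receptor, differed by 0.15 (edgeR p = 0.0232, adjusted p = 0.781), and by 0.14 without KO library 8 (edgeR p = 0.0332). Satb1 differed by 0.07 (edgeR p = 0.598).

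In the parvalbumin class, Syt2, Pthlh and Tac1 had log2 fold changes of 0.47, 0.43 and 0.98 (edgeR p = 0.0391, 0.0359 and 0.0321). Without KO library 8 they were 0.33, 0.31 and 0.08, none below 0.05. The potassium channel genes Kcnc1 and Kcnc2 had values of -0.04 and 0.08. In the somatostatin class, Nos1 had a value of -0.04. In the caudal class, Tac2 and Crh had fold changes of 1.21 and 0.53 (edgeR p = 0.0107 and 0.0395), and of 0.26 and 0.24 without KO library 8. Tac2 was at 20.3 CPM in that library and at most 2.71 CPM elsewhere. The cannabinoid receptor gene Cnr1 and Calb1 had values of 0.0028 and 0.08. In the neurogliaform class, Kit and Id2 each had a value of -0.04. Sv2c, which encodes a synaptic vesicle protein, had a value of -0.26 (edgeR p = 0.0898), and of -0.39 without KO library 8 (edgeR p = 0.00264, adjusted p = 0.967). None of these differences passed the adjustment over all genes.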

How the data were processed

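RNA was measured by sequencing in 23 hippocampus libraries. Per the labels' protocols, a Trizol lysate was cleaned over a spin column and a stranded mRNA kit made the libraries. The values the authors deposited are estimated counts, and 24.6% to 27.2% of non-zero values per library carry decimals. The submitters' processing notes name bcl2fastq, STAR and mm10. The counting program, annotation and use of strand are not given in the sources used here. Columns were matched by library name, with 0 left over. Symbols were found for 45143 of 45706 identifiers, and positions and exon lengths come from GENCODE M21. Labels do not say whether libraries come from separate animals, so p-values measure the spread between libraries. No pair of libraries of one genotype agreed within sampling noise (chi-square per degree of freedom at least 6.9).

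Counts were rounded, filtered with filterByExpr (15828 genes tested, 15870 without KO library 8), scaled by TMM and tested with edgeR 4.0.16 (R 4.3.3) by the robust quasi-likelihood F test, with Benjamini-Hochberg adjustment over all tested genes and a threshold of 0.05. CPM values use TMM-scaled totals. Limits for 0 counts use 3 counts and cover counting error only. Standard errors come from the fold change and F. Correlations use log2 CPM (prior count 2), with two-sided permutation p from 100000 resamples (numpy 2.4.6). Fits and correlations were tested on simulated data. Alternatives used DESeq2 1.42.0, limma 3.58.1 and sva 3.50.0. The members, lists and tests were chosen with earlier results of these data known. Named genes are the members, wider-list genes with an unadjusted p below 0.05 or the 2 highest means of their class, and the 5 (Vip) or 3 genes most like each member; 2 genes that this rule names are not reported here. Rorb, Cux2, Cplx3, Ccn2, Scnn1a, Rasgrf2, Drd2, Gm27953 and Gm10475 were named after their values were seen. The 9 members in RefSeq's promoter table (GRCm38.p6) were matched by symbol.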

Additional observations from a re-analysis of the deposited data

How the results depend on the processing

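Of 690 log2 fold changes of members under alternatives, 642 kept their direction, 0 were called, and 0.161 was the lowest adjusted p; Vip stayed above 0 in every one. Values are log2 fold changes, KO minus WT, and the cause of each change was not tested. The genes called in all libraries (2) became 4 with DESeq2, 4 with limma voom and quality weights, 1 with a mean count filter of 50 and 1 without the choroid plexus libraries. Without KO library 8 (2) they became 4 with voom and 1 with that filter. Leaving out single libraries gave 2 to 3 in both.

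In all libraries, adding the dentate gyrus list (chosen after seeing the data) turned Gad1 to -0.023, Gad2 to -0.13, Npy to 0.13, Cck to 0.11, Calb2 to -0.35 and Lhx6 to 0.011. The neocortex list (also chosen after) turned Gad1 to -0.0051, Sst to -0.0051 and Pvalb to -0.015. The mean of Gad1 and Gad2 turned Gad1 to -0.024. Voom turned Npy to 0.094 and Calb2 to -0.31, and 1 surrogate variable turned Npy to 0.0087. Leaving out single libraries spanned -0.027 to 0.065 for Gad1, -0.028 to 0.27 for Gad2, -0.062 to 0.068 for Npy and -0.28 to 0.37 for Calb2.

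Without KO library 8, the neocortex list turned Gad1 to -0.031, Sst to -0.059 and Npy to -0.021, and the dentate gyrus list Gad1 to -0.070 and Sst to -0.023. Voom turned Gad2 to 0.097 and Lhx6 to 0.00016, the choroid plexus covariate Gad2 to 0.0096 and Lhx6 to 0.0028, and leaving out the choroid plexus libraries Gad2 to 0.029. Leaving out single libraries spanned -0.030 to 0.067 for Gad1, -0.099 to 0.084 for Gad2, -0.060 to 0.0057 for Cck and -0.080 to 0.0072 for Lhx6.

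The 19 pairs, all with r above 0, became 20 over all 23 libraries, 16 of them with r above 0. They became 4 without the choroid plexus libraries, 5 in WT alone, 10 in KO alone and 8 to 20 when single libraries were left out. The r of Gad2 and Calb2 was -0.013 in KO alone, and over all 23 libraries that of Gad2 and Lhx6 was -0.32 and of Calb2 and Lhx6 -0.26. No paired analysis was possible because no replicate number occurs in both genotypes. The fewest counts of a member in a library were 67, and over all genes the biological coefficient of variation was 22.9% (19.7% without KO library 8).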
